A study of Arabidopsis thaliana with 20 samples.

Results

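ARR15 and RR16 are a pair of Arabidopsis type-A response regulators, and their transcripts were followed here over every group of the study. The members were the probe sets that the array's probe-to-gene table names ARR15 (locus AT1G74890) or RR16 (locus AT2G40670, also called ARR16). This gave 2 probe sets, 1 for each gene, of the 22746 on the array that are not controls. Cytokinin is sensed by histidine kinase receptors, and phosphotransfer proteins carry the phosphate to response regulators. Type-B response regulators are transcription factors, and many type-A genes are among their direct targets. Type-A proteins lack the DNA-binding output domain and dampen the pathway, so that type-A transcripts are widely used as a readout of cytokinin signalling. In Arabidopsis roots, ARR15 and RR16 are induced by cytokinin through the receptor AHK4.

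The material was hypocotyl segments of Arabidopsis thaliana, cut from 10-day-old dim-light seedlings and cultured for 3 days in continuous light. Every medium was callus induction medium with biotin and the synthetic auxin 2,4-D at 100 ng/ml, so no group lacked auxin. The wild type (Ler), the ckh1-1 mutant and the ckh2-1 mutant were cultured without kinetin, a cytokinin, or with 25 or 200 ng/ml of it. A further wild type group received 100 ng/ml TSA (trichostatin A, which blocks histone deacetylases) in place of kinetin. Each of the 10 groups held 2 arrays, 20 in all. The ckh names stand for cytokinin hypersensitivity, and the study asked how CKH1 and CKH2 bear on cytokinin responses in tissue culture. Each gene was represented by 1 mutant allele, and the mutants were not given TSA. The probe sets of CKH1 and CKH2 carry no name in the table, so those transcripts are not reported.

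Signals are MAS5 intensities on the linear scale, in arbitrary units, as deposited. Differences are in log2(signal + 27.4), with the standard error of the fit, and positive values mean that the first group named is higher. The added constant keeps noise at low signals from giving large folds, and it understates the change of a dim gene, RR16 above all. A change is called where limma's moderated test has a Benjamini-Hochberg adjusted p under 0.05 over all 22746 probe sets. The 2% trimmed mean was 310.9 on each replicate 1 array and 236.9 on each replicate 2 array, a split by replicate number that is balanced over the groups. Medians per array ran from 119.7 to 137.0 in replicate 1 and from 92.6 to 107.7 in replicate 2, and the arrays of a group correlated with r from 0.975 to 0.989 across probe sets. The labels do not say that replicates were separate cultures, so p-values here cover array-to-array spread, which may be technical, and 2 arrays a group limit the precision. Groups of 2 arrays may fail to overlap without a difference in level. How many of all probe sets do so was not counted. In whole segments, fewer cells that use a gene and less of its RNA per cell cannot be told apart. Of 6 genes listed as a check of the tissue, 4 were named on the array. They were RCA, which activates Rubisco in green tissue, and the auxin-responsive genes LBD16, LBD29 and GH3.1. Group mean signals ran from 338 to 1180 for RCA, 113 to 1666 for LBD16, 109 to 787 for LBD29 and 57.0 to 1047 for GH3.1. Averaged over genotypes, from 0 to 200 ng/ml RCA rose by 1.03 ± 0.19 (adjusted p = 0.00132, limma), while LBD16 fell by 1.83 ± 0.20 (adjusted p = 7.02e-06) and GH3.1 fell by 1.78 ± 0.25 (adjusted p = 0.000104). LBD29 differed by -0.57 ± 0.27 (adjusted p = 0.208), which was not called. Averaged over kinetin, LBD29 was lower than in the wild type by -1.79 ± 0.27 in ckh1-1 (adjusted p = 0.000607) and -1.26 ± 0.27 in ckh2-1 (adjusted p = 0.00787). On the same average GH3.1 was lower in ckh1-1 by -1.06 ± 0.25 (adjusted p = 0.0154) and RCA higher in ckh2-1 by 0.78 ± 0.19 (adjusted p = 0.0203). Their part in the results below was not tested.

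**Figure D1:**
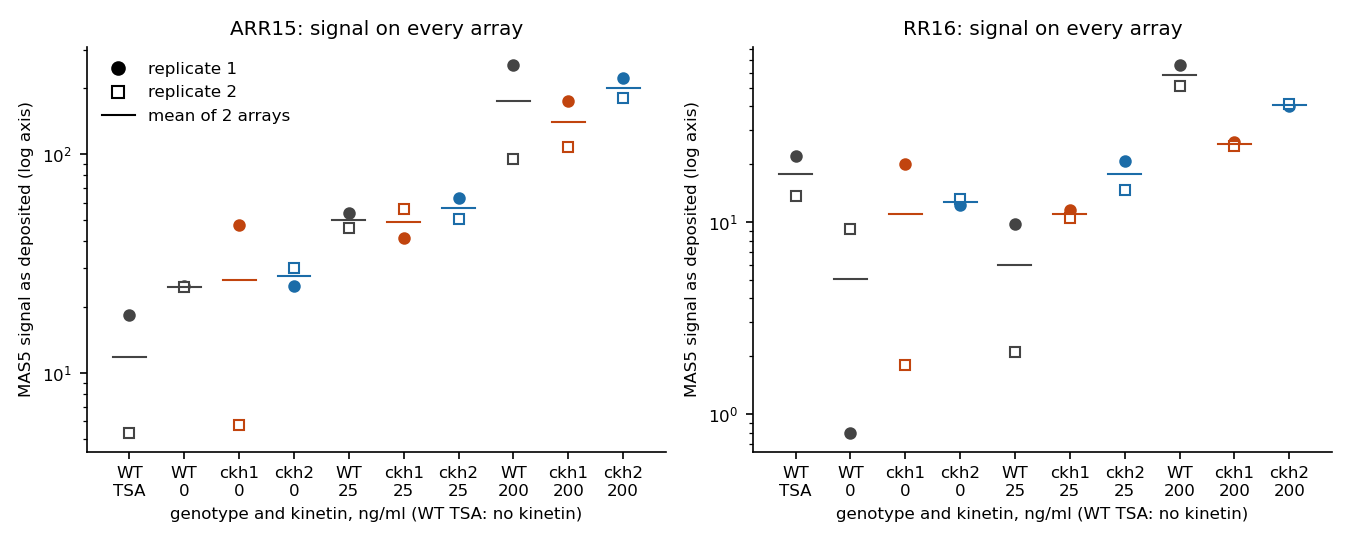
MAS5 signal (arbitrary units, log axis) of ARR15 and RR16 on each of the 20 arrays, by group, with replicate 1 as filled circles, replicate 2 as open squares and the mean of both as a line. For both genes the arrays at 200 ng/ml kinetin stand above those at 0 and 25 ng/ml in every genotype.

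ARR15 rose at 200 ng/ml kinetin in the wild type and in both mutants. In the wild type its signals without kinetin were 24.9 and 24.7, and at 25 ng/ml they were 53.9 and 46.1. At 200 ng/ml they were 254 and 94.4. Every array was therefore higher at each higher kinetin level, and the arrays at 200 ng/ml lay much further apart than the others. The change from 0 to 200 ng/ml was 1.83 ± 0.38 (95% interval 1.02 to 2.63, adjusted p = 0.0225, limma), in a comparison that called 1.77% of all probe sets. Within replicate numbers the signal ratio was 10.2 in replicate 1 and 3.83 in replicate 2. The call was lost without either wild type array at 0 ng/ml (adjusted p = 0.151 and 0.0958) or without replicate 1 at 200 ng/ml (adjusted p = 0.311). With the replicate number as a block, which keeps the scaling split out when 1 array is missing, it was lost only without replicate 1 at 0 ng/ml (adjusted p = 0.0539) or at 200 ng/ml (adjusted p = 0.0682). It was also lost with a constant of 2.74 in place of 27.4 (adjusted p = 0.0699).

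In ckh1-1, ARR15 signals were 47.3 and 5.80 without kinetin, 41.5 and 56.0 at 25 ng/ml, and 174 and 107 at 200 ng/ml. The ckh1-1 arrays without kinetin were far apart, and the higher of them lay between both arrays at 25 ng/ml. The arrays at 200 ng/ml stood above all of these. The change from 0 to 200 ng/ml was 1.73 ± 0.38 (95% interval 0.92 to 2.53, adjusted p = 0.00986, limma; 6.67% of probe sets called). It was no longer called without replicate 2 at 0 ng/ml (adjusted p = 0.130) or replicate 1 at 200 ng/ml (adjusted p = 0.121). With the block it stayed called without any 1 of the 4 arrays, up to an adjusted p of 0.0293.

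In ckh2-1, ARR15 signals were 25.0 and 30.2 without kinetin, 63.1 and 50.2 at 25 ng/ml, and 223 and 180 at 200 ng/ml. The kinetin levels did not overlap, and both arrays of each level lay close together. The change from 0 to 200 ng/ml was 2.05 ± 0.38 (95% interval 1.24 to 2.86, adjusted p = 0.00318, limma; 5.14% called). This call held without any 1 of its 4 arrays, up to an adjusted p of 0.0459.

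The ARR15 difference at low kinetin was not called in any genotype. From 0 to 25 ng/ml it was 0.57 ± 0.38 in the wild type (adjusted p = 1.00), 0.61 ± 0.38 in ckh1-1 (adjusted p = 0.834) and 0.61 ± 0.38 in ckh2-1 (adjusted p = 1.00). The ckh1-1 value rested on its uneven pair without kinetin: it was 1.19 without replicate 1 of that pair and 0.021 without replicate 2. These comparisons called few probe sets at all: 0% in the wild type, 0.928% in ckh1-1 and 0.0132% in ckh2-1. In the wild type the count was 0 under limma, with 555 probe sets at an unadjusted p under 0.05. That is less than a share of 0.05 of all 22746, so the main fit may be too strict here. A fit blocked on replicate number also gave 0 calls, with 1221 probe sets at an unadjusted p under 0.05. Over the 6 arrays at each level, ARR15 ran from 5.80 to 47.3 (median 24.9) without kinetin and from 41.5 to 63.1 (median 52.1) at 25 ng/ml. Of 6 pairs of the same genotype and replicate number, 5 were higher at 25 ng/ml, and the exception was replicate 1 of ckh1-1. Averaged over genotypes the difference was 0.59 ± 0.22 (95% interval 0.13 to 1.06). It was not called over all probe sets (adjusted p = 0.330, limma; 1.06% called), while the exact two-sided permutation test of this value alone, within genotypes, gave p = 0.0185. In all 10 such tests were run, and the smallest p they allow is 0.00926.

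ARR15 also rose from 25 to 200 ng/ml, on average over genotypes. At 200 ng/ml the 6 ARR15 signals ran from 94.4 to 254 (median 177), all above the 6 at 25 ng/ml. The average over genotypes was 1.27 ± 0.22 for this step (adjusted p = 0.00218, limma; 3.90% called) and 1.87 ± 0.22 for the whole range from 0 to 200 ng/ml (adjusted p = 1.74e-05; 13.2% called). Both gave an exact permutation p of 0.00926, and both stayed called without any 1 of their 12 arrays. Within single genotypes the step was 1.26 in the wild type (adjusted p = 0.291; 0.259% called), 1.12 in ckh1-1 (adjusted p = 0.367; 1.00% called) and 1.44 in ckh2-1 (adjusted p = 0.0849; 1.63% called), each ± 0.38. With the replicate number as a block the ckh2-1 step was called (adjusted p = 0.0164), and over all alternatives with every array its adjusted p ran from 0.00759 to 0.337. In place within its array, ARR15 moved from a median percentile of 25.9 without kinetin to 35.1 at 25 ng/ml and 59.9 at 200 ng/ml.

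RR16 was called higher at 200 ng/ml in the wild type and, near the threshold, in ckh2-1, from signals near the bottom of the array. In ckh1-1 the difference also pointed up and was not called, and the mutants were not compared with each other. In the wild type its signals were 0.794 and 9.24 without kinetin, 9.77 and 2.10 at 25 ng/ml, and 65.4 and 51.2 at 200 ng/ml. The arrays at 0 and 25 ng/ml overlapped and those at 200 ng/ml stood apart. The change from 0 to 200 ng/ml was 1.41 ± 0.20 (95% interval 0.97 to 1.85, adjusted p = 0.00219, limma), and it held without any 1 of its 4 arrays. From 25 to 200 ng/ml the change was 1.37 ± 0.20 (95% interval 0.93 to 1.80, adjusted p = 0.0135). The latter call was lost without replicate 2 at 25 ng/ml (adjusted p = 0.115) or replicate 1 at 200 ng/ml (adjusted p = 0.175), and with the smaller constant (adjusted p = 0.111). With the block it stayed called without any 1 of the 4 arrays, up to an adjusted p of 0.0398. The signal ratios of 82.4 in replicate 1 and 5.54 in replicate 2 from 0 to 200 ng/ml rest on denominators close to zero and give no firm fold.

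In ckh1-1, RR16 signals were 20.1 and 1.79 without kinetin, 11.5 and 10.5 at 25 ng/ml, and 26.0 and 24.7 at 200 ng/ml. Both arrays at 200 ng/ml were above the other 4, although by little over replicate 1 without kinetin. The difference from 0 to 200 ng/ml was 0.50 ± 0.20 (95% interval 0.07 to 0.94), which was not called (adjusted p = 0.189, limma). It depended on the pair without kinetin: 0.85 without its replicate 1 (adjusted p = 0.0290) and 0.15 without its replicate 2 (adjusted p = 0.740). From 25 to 200 ng/ml it was 0.46 ± 0.20 (adjusted p = 0.732).

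In ckh2-1, RR16 signals were 12.3 and 13.1 without kinetin, 20.8 and 14.6 at 25 ng/ml, and 40.2 and 41.2 at 200 ng/ml. Both arrays lay close together at 0 and at 200 ng/ml, and the kinetin levels did not overlap. The change from 0 to 200 ng/ml was 0.76 ± 0.20 (95% interval 0.33 to 1.20, adjusted p = 0.0408, limma). This call sat near the threshold and was lost whichever 1 of the 4 arrays was left out (adjusted p from 0.175 to 0.195), and with the smaller constant (adjusted p = 0.287). With the block it was lost likewise (adjusted p from 0.0530 to 0.123). From 25 to 200 ng/ml the difference was 0.60 ± 0.20 (adjusted p = 0.276).

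From 0 to 25 ng/ml RR16 differed by 0.04 in the wild type, 0.04 in ckh1-1 and 0.17 in ckh2-1, each ± 0.20 and none called. The 6 signals ran from 0.794 to 20.1 (median 10.8) without kinetin and from 2.10 to 20.8 (median 11.0) at 25 ng/ml. Averaged over genotypes the difference was 0.08 ± 0.12 (95% interval -0.17 to 0.34, adjusted p = 0.981, limma; exact permutation p = 0.491). At 200 ng/ml the 6 signals ran from 24.7 to 65.4 (median 40.7), all above the other 12. The average change was 0.89 ± 0.12 from 0 ng/ml (adjusted p = 6.16e-05) and 0.81 ± 0.12 from 25 ng/ml (adjusted p = 0.000565), each with an exact permutation p of 0.00926 and each called without any 1 of its 12 arrays. The median percentile within the array was 15.2 without kinetin, 14.3 at 25 ng/ml and 32.3 at 200 ng/ml, so RR16 was below the array median on all of these arrays.

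**Figure D2:**
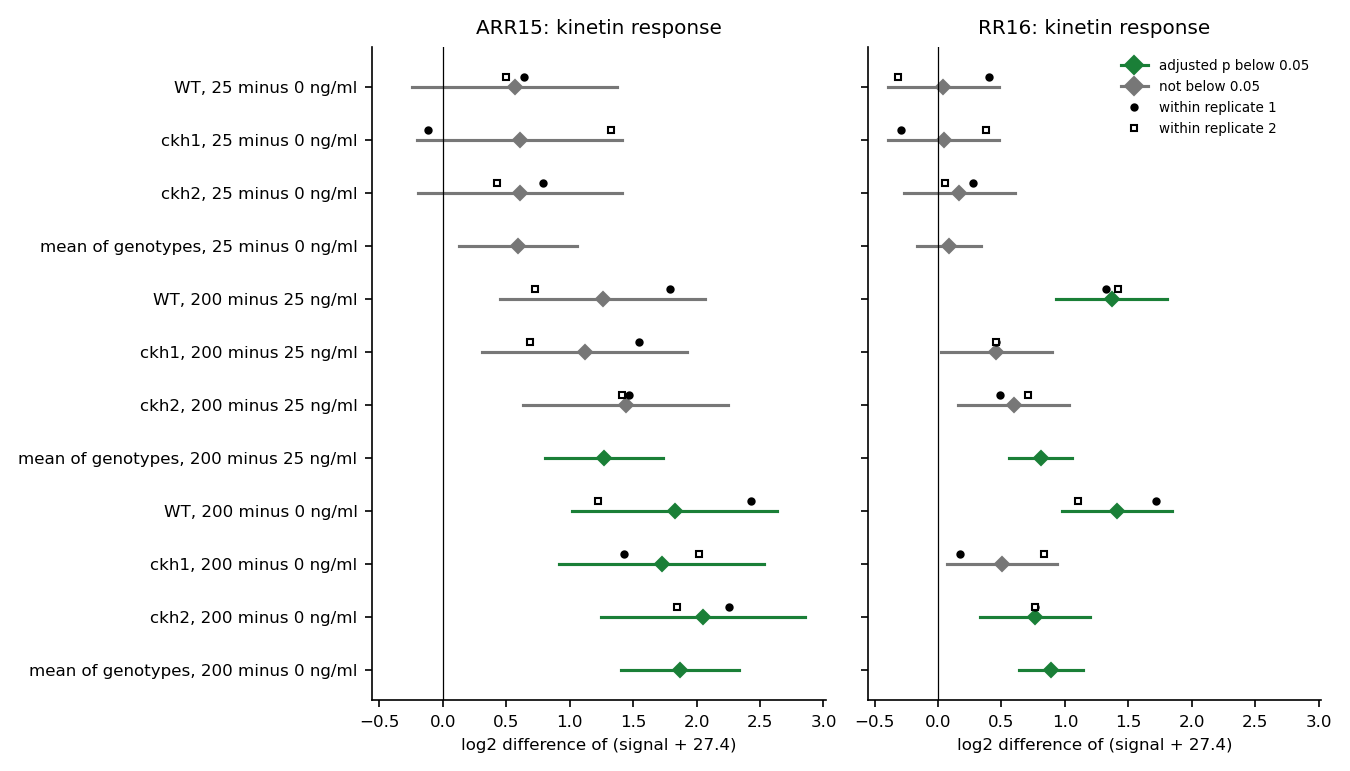
Kinetin responses of ARR15 and RR16 in the wild type, ckh1-1 and ckh2-1 and averaged over them, as log2(signal + 27.4) differences on the x axis (diamonds, green where called and grey where not) with 95% intervals from the limma fit, and small circles and squares for the differences within replicates 1 and 2. The intervals, which are not adjusted, lie above 0 from 0 to 200 ng/ml for both genes in every genotype. Of these changes, that of RR16 in ckh1-1 was not called over all probe sets. The intervals from 0 to 25 ng/ml include 0 in each single genotype.

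Neither mutant differed from the wild type in ARR15 by a called amount at any kinetin level. For ckh1-1 the differences were -0.07 without kinetin, -0.03 at 25 ng/ml and -0.17 at 200 ng/ml, each ± 0.38. For ckh2-1 they were 0.08, 0.12 and 0.30, each ± 0.38. Adjusted p was at least 0.984 for all 6 (limma), and the wild type and mutant arrays overlapped in 5 of them. The exception was ckh2-1 without kinetin, where both mutant arrays were barely above the wild type ones. The intervals remain wide: at 200 ng/ml they run from -0.98 to 0.64 for ckh1-1 and from -0.51 to 1.104 for ckh2-1. Of all probe sets, 1.46%, 1.17% and 2.44% were called between ckh1-1 and the wild type at 0, 25 and 200 ng/ml, and 1.32%, 0.831% and 2.33% between ckh2-1 and the wild type. Averaged over kinetin levels, ARR15 differed by -0.09 ± 0.22 in ckh1-1 (adjusted p = 0.957, limma; exact permutation p = 0.778) and by 0.16 ± 0.22 in ckh2-1 (adjusted p = 0.858; exact permutation p = 0.519), in comparisons that called 6.32% and 6.57%.

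The ARR15 response itself was also compared between genotypes, as the mutant's change minus the wild type's. From 0 to 25 ng/ml this was 0.04 ± 0.54 for both mutants (adjusted p = 1.00, limma). From 0 to 200 ng/ml it was -0.10 ± 0.54 for ckh1-1 (95% interval -1.24 to 1.04, adjusted p = 0.999) and 0.22 ± 0.54 for ckh2-1 (95% interval -0.92 to 1.36, adjusted p = 1.00). No difference in response was detected, and differences of up to about the size of 1 log2 unit either way lie inside these intervals. Such interactions were rarely called for any probe set: 0% at 25 ng/ml in both mutants, and 0.655% in ckh1-1 and 0.176% in ckh2-1 at 200 ng/ml. At 25 ng/ml the counts of 0 came with 890 probe sets at an unadjusted p under 0.05 for ckh1-1 and 518 for ckh2-1. Both are less than a share of 0.05 of all 22746, so the main fit may be too strict here too. With the replicate block the counts of calls were 94 and 0, with 2236 and 1271 probe sets at an unadjusted p under 0.05.

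At 200 ng/ml RR16 signals were highest in the wild type and lowest in ckh1-1. The wild type arrays read 65.4 and 51.2, those of ckh2-1 40.2 and 41.2, and those of ckh1-1 26.0 and 24.7. No 2 genotypes overlapped, which with 2 arrays each is not a test of a difference. Against the wild type, ckh1-1 differed by -0.69 ± 0.20 (95% interval -1.13 to -0.26, unadjusted p = 0.00394 from limma), which was not called over all probe sets (adjusted p = 0.113). With the replicate number as a block it was called (adjusted p = 0.0387), and over the alternatives with every array its adjusted p ran from 0.0387 to 0.653. For ckh2-1 the difference was -0.33 ± 0.20 (95% interval -0.76 to 0.11, adjusted p = 0.716).

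At the lower kinetin levels the mutants' RR16 differences from the wild type pointed up. Without kinetin they were 0.21 ± 0.20 in ckh1-1 (adjusted p = 0.968, limma) and 0.32 ± 0.20 in ckh2-1 (adjusted p = 0.907). At 25 ng/ml they were 0.21 ± 0.20 (adjusted p = 1.00) and 0.44 ± 0.20 (95% interval 0.01 to 0.88, unadjusted p = 0.0468, adjusted p = 0.593). None was called, and only the ckh1-1 and wild type arrays without kinetin overlapped among these 4. Such separation of 2 arrays from 2 was likewise not counted over all probe sets. The RR16 response to 200 ng/ml, as the mutant's change minus the wild type's, was -0.91 ± 0.29 for ckh1-1 (95% interval -1.52 to -0.29, adjusted p = 0.341) and -0.65 ± 0.29 for ckh2-1 (95% interval -1.26 to -0.03, adjusted p = 1.00). Their unadjusted p-values were 0.00675 and 0.0411 in limma, and neither was called. With 1 array left out and the block, the ckh1-1 value was called without replicate 2 of the wild type at 0 ng/ml (-1.19, adjusted p = 0.0490) or of ckh1-1 at 0 ng/ml (-1.22, adjusted p = 0.0322). The response to 25 ng/ml differed by 0.00 ± 0.29 and 0.12 ± 0.29. Averaged over kinetin levels the mutants differed from the wild type by -0.09 ± 0.12 in ckh1-1 (adjusted p = 0.869, limma; exact permutation p = 0.630) and 0.15 ± 0.12 in ckh2-1 (adjusted p = 0.689; exact permutation p = 0.343).

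TSA was compared with the wild type on the same medium without kinetin and with the wild type at 200 ng/ml kinetin. ARR15 signals under TSA were 18.3 and 5.29, both under the 24.9 and 24.7 of the medium without additions. The difference was -0.43 ± 0.38 (95% interval -1.24 to 0.37), which was not called (adjusted p = 0.609, limma), although this comparison called 6.96% of probe sets, and more with the block. RR16 signals under TSA were 22.0 and 13.7, above the 0.794 and 9.24 without additions. Its difference was 0.49 ± 0.20 (95% interval 0.05 to 0.92, unadjusted p = 0.0309, adjusted p = 0.199), also not called. Both genes were lower under TSA than under 200 ng/ml kinetin. ARR15 differed by -2.26 ± 0.38 (adjusted p = 0.00156) and RR16 by -0.92 ± 0.20 (adjusted p = 0.0105), in a comparison that called 7.55%. The ARR15 call held without any 1 of its 4 arrays. The RR16 call was lost without replicate 1 at 200 ng/ml (adjusted p = 0.0954), without replicate 2 of TSA (adjusted p = 0.0883), and with the smaller constant (adjusted p = 0.193). With the block it stayed called without any 1 of the 4 arrays, up to an adjusted p of 0.0341. In the same comparison LBD16 was higher under TSA by 2.28 ± 0.34 (adjusted p = 0.000568, limma) and GH3.1 by 1.78 ± 0.43 (adjusted p = 0.0181), and their part was not tested. The 2 comparisons with TSA share it, and the second shares its wild type arrays with the kinetin responses above.

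**Figure D3:**
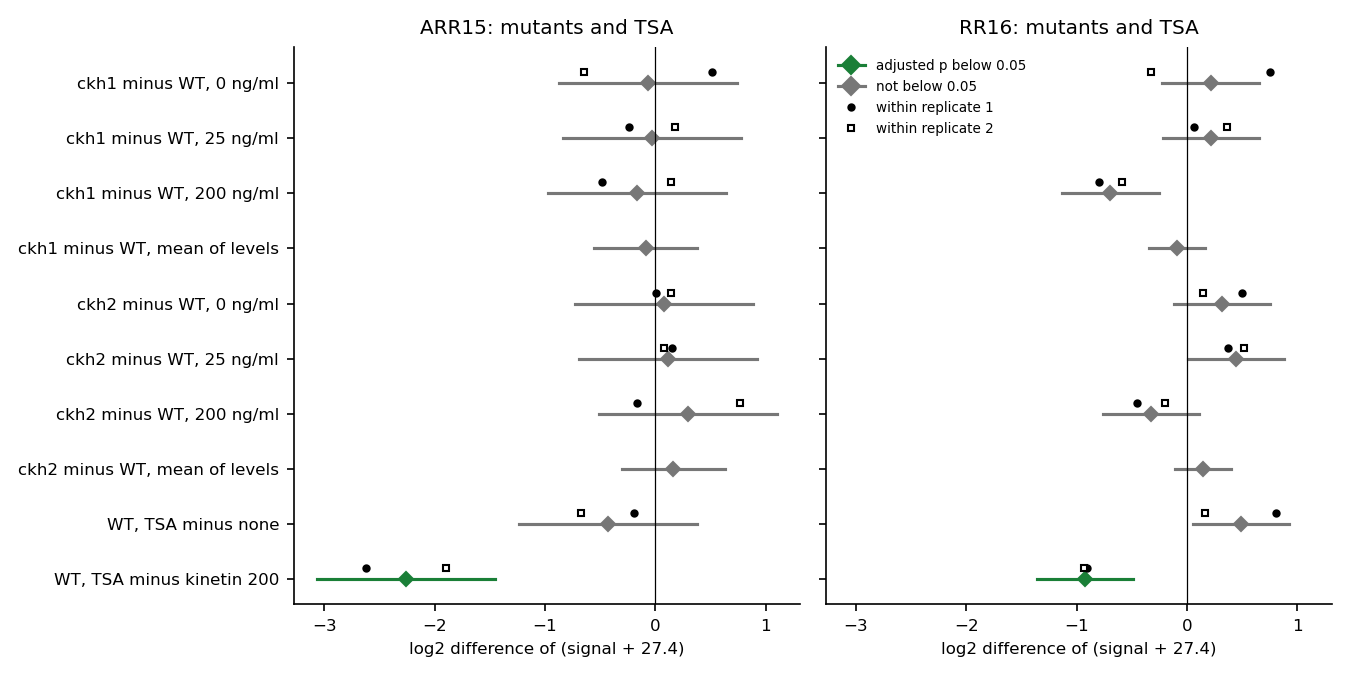
Differences of ARR15 and RR16 between each mutant and the wild type at 0, 25 and 200 ng/ml kinetin, and between TSA and the wild type groups, on the same x axis and with the same markers as the plot of kinetin responses. For ARR15 every mutant interval includes 0. For RR16 the ckh1-1 interval at 200 ng/ml lies below 0 and the ckh2-1 interval at 25 ng/ml above 0. Neither passed adjustment over all probe sets in the main fit. The ckh1-1 difference at 200 ng/ml was called with the replicate block, rescaling and quantile normalization.

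Ordered by group mean of log2 values, ARR15 was lowest under TSA (mean signal 11.8 ± 9.23, SD, n = 2). The groups without kinetin followed, at 26.6 ± 29.4 in ckh1-1, 24.8 ± 0.15 in the wild type and 27.6 ± 3.65 in ckh2-1. Next came 25 ng/ml, at 48.7 ± 10.2 in ckh1-1, 50.0 ± 5.53 in the wild type and 56.7 ± 9.07 in ckh2-1. The groups at 200 ng/ml were highest, at 141 ± 47.4, 174 ± 113 and 201 ± 30.8 in the same order of genotypes. Groups of the same kinetin level were neighbours throughout, and within a level neighbours overlapped except the wild type and ckh2-1 without kinetin. Of neighbours between levels, ckh2-1 without kinetin did not overlap ckh1-1 at 25 ng/ml, and ckh2-1 at 25 ng/ml did not overlap ckh1-1 at 200 ng/ml. The levels 0 and 25 ng/ml still overlapped through ckh1-1 without kinetin (5.80 and 47.3). Its range reached into those of ckh1-1 (41.5 and 56.0) and the wild type (46.1 and 53.9) at 25 ng/ml.

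RR16 did not order by kinetin level below 200 ng/ml. The wild type was lowest, at 5.02 ± 5.97 without kinetin and 5.94 ± 5.42 at 25 ng/ml. ckh1-1 followed at 10.9 ± 12.9 without kinetin and 11.0 ± 0.69 at 25 ng/ml, and then ckh2-1 at 12.7 ± 0.55 and 17.7 ± 4.35. TSA stood at 17.8 ± 5.90, next to ckh2-1 at 25 ng/ml. These neighbours overlapped, except ckh1-1 at 25 ng/ml with ckh2-1 without kinetin and both groups of ckh2-1 with each other. TSA did not overlap ckh1-1 at 200 ng/ml. At 200 ng/ml the means were 25.4 ± 0.90 in ckh1-1, 40.7 ± 0.76 in ckh2-1 and 58.3 ± 9.99 in the wild type, none overlapping the next. With so few arrays in a group, separation of neighbours in these orders is not a test of a difference for either gene. How often other probe sets separate in this way was not counted.

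Of 66 other cytokinin pathway genes listed, 4 carry a name in the array's table. None was another type-A regulator, a receptor, a phosphotransfer protein, or a gene of cytokinin synthesis or breakdown. ARR18 and ARR19, of the type-B class, were dim, with group means from 4.15 to 15.6 and from 9.46 to 26.0, and neither was called in any kinetin comparison. UGT76C1 and UGT76C2 encode glucosyltransferases that inactivate cytokinins by N-glucosylation. UGT76C1 had group means from 44.5 to 87.8 and was not called. In ckh1-1, UGT76C2 had mean signals of 474 ± 10.0 without kinetin, 277 ± 81.3 at 25 ng/ml and 194 ± 16.2 at 200 ng/ml (SD, n = 2). It fell from 0 to 200 ng/ml, with a change of -1.18 ± 0.32 in ckh1-1 (adjusted p = 0.0327, limma) and -0.89 ± 0.18 averaged over genotypes (adjusted p = 0.00301). In ckh2-1 the change was -0.91 ± 0.32 (adjusted p = 0.139, limma), called only with the replicate block (adjusted p = 0.0121). In the wild type it was -0.58 ± 0.32, not called in either fit (adjusted p = 0.645, and 0.152 with the block). Thus 1 of the 4 was called lower on average at 200 ng/ml and none higher, against 13.2% of all probe sets called in either direction.

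The genes most like each member over the 10 group means were listed by Pearson's r, among probe sets of 1 gene whose highest group mean was above 115 and whose group means spanned at least 1 log2 unit. Genes were compared across only 10 means that share the same arrays, and r is given as a description. For ARR15 the closest was AT1G28390 (r = 0.990), whose group means ran from 115 under TSA to 409 in ckh2-1 at 200 ng/ml. AT3G60490 (r = 0.955), AT1G62870 (0.954), AT4G28430 (0.953), the MAP kinase gene ATMPK13 (0.953), AT1G03620 (0.949), AT1G19330 (0.949) and AT1G10140 (0.947) followed. ATMPK13 ran from 71.2 under TSA to 795 in ckh2-1 at 200 ng/ml. Of these 8 genes, 7 were lowest under TSA and 7 highest in ckh2-1 at 200 ng/ml, as ARR15 was in both respects. The genes were picked for likeness to ARR15, so shared extremes largely follow from that choice. The most opposite were AT5G55400 (r = -0.966), AT4G25170 (-0.924), AT5G48650 (-0.914) and the expansin gene EXPA9 (-0.913), which was highest under TSA at 223 and lowest in ckh1-1 at 200 ng/ml at 45.6.

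For RR16 the likeness was looser. AT4G11950 led (r = 0.920), with group means from 44.6 in the wild type without kinetin to 118 in the wild type at 200 ng/ml. AT2G29660 (0.889), AT3G26700 (0.884), AT1G65900 (0.879), AT1G33470 (0.872), XTH32 (0.867), AT4G26490 (0.862) and AT4G01650 (0.845) followed. XTH32, of the family that cuts and rejoins xyloglucan in cell walls, ran from 25.4 in ckh2-1 without kinetin to 244 in the wild type at 200 ng/ml. The most opposite were AT3G14740 (r = -0.861), AT3G21480 (-0.826), AT4G20320 (-0.804) and AT1G07520 (-0.792). Ranking by Spearman's rho kept 2 of the 8 closest genes of ARR15 and 3 of those of RR16, whereas rescaling the arrays kept 7 of 8 for each. ARR15 and RR16 correlated with each other at r = 0.795. Of 22745 other probe sets, 523 were at least that like ARR15 and 109 at least that like RR16, the other member included.

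**Figure D4:**
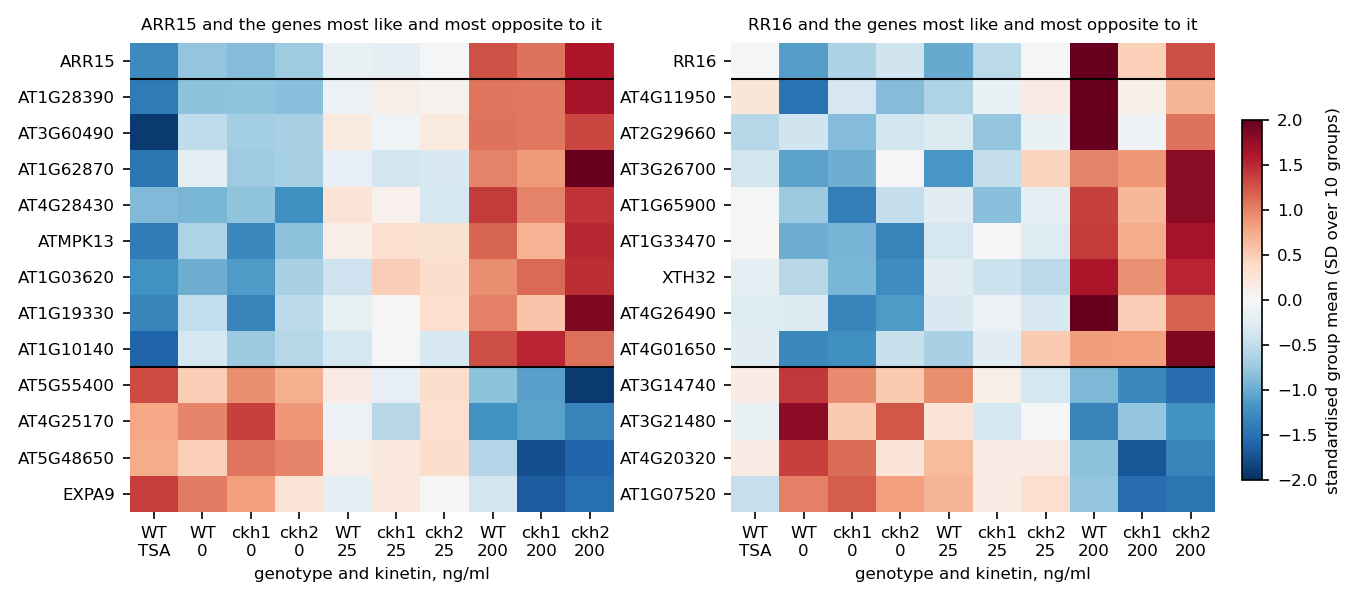
Profiles of ARR15, RR16 and the 8 most like and 4 most opposite genes of each over the 10 groups, as group means of log2(signal + 27.4) scaled to mean 0 and SD 1 for each gene (colour). ARR15 steps up with each kinetin level in every genotype and is lowest under TSA, and RR16 is highest in the wild type at 200 ng/ml.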

How the data were processed

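The authors deposited 1 table of MAS5 signal intensities on the linear scale, and MAS5 is named in the submitters' processing notes. Neither its version nor the target of its scaling is stated in the sources used here. Per the labels' protocols, total RNA was extracted with RNeasy and made into biotinylated cRNA. Detection calls, promoter and protein sequences were not used here.

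Of 22810 probe sets, 64 controls were left out. The rest were analysed as log2(signal + 27.4), the constant being 0.1 of the median 2% trimmed mean. One limma fit (version 3.58.1, R 4.3.3) of the 10 group means over all 20 arrays was used, with eBayes and a trend and 10 residual degrees of freedom. No filter on low values was set, since a filter at the 40th percentile, which 15469 probe sets pass, keeps ARR15 but not RR16: 1 of the 2 members passes. The Benjamini-Hochberg adjustment ran over all 22746 probe sets of a comparison. Exact two-sided permutations moved labels within genotypes or kinetin levels (216 rearrangements). The platform's table gives a single gene for 13513 probe sets, several for 503 and none for 8730.

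The named-genes rule was the members, all listed pathway genes with a name, and the 8 most like and 4 most opposite genes. The members, lists and tests were chosen with earlier results of these data known. Arrays with the same replicate number deviated together (r over 0.1) in 37 of 45 pairs of groups, from 0.000339 to 0.580 with a median of 0.269. The arrays were not rescaled for these r values, so the scaling split enters them. A deviation beyond the split was not tested. The main fit does not allow for deviation shared by replicate number, and the replicate block is the alternative that does. Because the scaling split follows the replicate numbers, the fit with the block is given for ARR15 and RR16 where it changes a call, including calls lost without 1 array. Values of the other genes are from the main fit unless stated, and the block also moved some of their calls. The alternatives were the filter, rescaled arrays, quantile normalization, a constant of 2.74, the replicate block, no trend, and each array left out. The fit was tested on simulated data.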

Additional observations from a re-analysis of the deposited data

Results flagged for a closer look

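RR16 was singled out in 3 comparisons between groups, each because both replicates moved one way at one kinetin level and the opposite way at another. In ckh1-1 against the wild type, the log2 differences were 0.07 and 0.36 in replicates 1 and 2 at 25 ng/ml kinetin and -0.80 and -0.59 at 200 ng/ml, a gap of 0.91 between the means that was not tested. In ckh2-1 against the wild type they were 0.49 and 0.14 without kinetin and -0.46 and -0.20 at 200 ng/ml, a gap of 0.65. That gap is the interaction of the limma fit, where it was not called (adjusted p = 1.00). At 25 ng/ml the ckh2-1 differences were 0.37 and 0.51, a gap of 0.77 to those at 200 ng/ml, and this was not tested. All RR16 signals at 0 and 25 ng/ml were at most 20.8, below the added constant of 27.4. The ckh1-1 signals at 200 ng/ml (26.0 and 24.7) were below it too. Groups of 2 arrays are too small for a test of single arrays that stand apart.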

How the results depend on the processing

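Of the alternatives that use every array, 147 of 156 values for ARR15 and 119 of 130 for RR16 kept the direction and the side of the threshold; the cause of the others was not tested. With the smaller constant the ARR15 rise in the wild type from 0 to 200 ng/ml was 2.52 and no longer called (adjusted p = 0.0699), as were the RR16 values of 2.96 for the wild type from 25 to 200 ng/ml (0.111), 1.49 for ckh2-1 from 0 to 200 ng/ml (0.287) and -1.59 for TSA against 200 ng/ml (0.193). With no trend the RR16 rise in ckh2-1 of 0.76 was not called (0.0621). With quantile normalization the ARR15 step from 25 to 200 ng/ml was called in the wild type (1.31, adjusted p = 0.0476) and RR16 was called in ckh1-1 from 0 to 200 ng/ml (0.68, 0.00984) and in ckh2-1 from 25 to 200 ng/ml (0.66, 0.0332). The ARR15 step in ckh2-1 from 25 to 200 ng/ml was called with the filter (1.44, adjusted p = 0.0305), rescaling (1.45, 0.0169), quantile normalization (1.56, 0.00759) and the replicate block (1.44, 0.0164). RR16 in ckh1-1 against the wild type at 200 ng/ml was called with rescaling (-0.69, 0.0415), quantile normalization (-0.59, 0.0438) and the replicate block (-0.69, 0.0387). Sign changes were limited to values near 0. The ARR15 response to 200 ng/ml in ckh1-1 against the wild type was 0.023 with quantile normalization and 0.23 with the smaller constant. The response to 25 ng/ml in ckh2-1 against the wild type was -0.13 for ARR15 and -0.020 for RR16 with quantile normalization, and the average RR16 difference of ckh1-1 was 0.12 with the smaller constant. Apart from the 2 named, the replicate block changed no call of the members.

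With 1 array left out, alone or with the block, the lone array of its group is assumed to vary like the others, and without the block the scaling is then unbalanced. ARR15 values ran from 0.021 to 1.19 for ckh1-1 from 0 to 25 ng/ml, from 1.22 to 2.43 for the wild type from 0 to 200 ng/ml, from 0.66 to 1.86 for the wild type from 25 to 200 ng/ml (called with the block without replicate 2 at 200 ng/ml, adjusted p = 0.0272), from 1.14 to 2.31 for ckh1-1 from 0 to 200 ng/ml, and from 0.40 to 0.79 for the average from 0 to 25 ng/ml, which the block without ckh1-1 replicate 1 at 0 ng/ml called (adjusted p = 0.0429). Mutant minus wild type, ARR15 ran at 0, 25 and 200 ng/ml from -0.65 to 0.52, -0.39 to 0.33 and -0.77 to 0.44 in ckh1-1 and from -0.20 to 0.36, -0.0074 to 0.24 and -0.31 to 0.90 in ckh2-1. Averaged over kinetin these were -0.29 to 0.11 and -0.038 to 0.36. Its response differed by -0.55 to 0.62 at 25 ng/ml and -0.71 to 0.50 at 200 ng/ml in ckh1-1, and by -0.24 to 0.32 and -0.38 to 0.83 in ckh2-1. RR16 ran from -0.24 to 0.33 for the wild type from 0 to 25 ng/ml, from 1.20 to 1.53 for the wild type from 25 to 200 ng/ml, and from -0.31 to 0.40 and 0.15 to 0.85 for ckh1-1 from 0 to 25 and to 200 ng/ml. It ran from 0.67 to 0.86 for ckh2-1 from 0 to 200 ng/ml, from -1.06 to -0.79 for TSA against 200 ng/ml, and from 0.20 to 0.77 for TSA against no addition, where leaving out replicate 2 of the wild type without kinetin gave a call with the block (adjusted p = 0.0205). For ckh1-1 minus the wild type RR16 ran from -0.14 to 0.56 without kinetin and from -0.21 to 0.028 on average, and for ckh2-1 without kinetin from 0.033 to 0.61. Its response differed by -0.35 to 0.35 at 25 ng/ml and -1.26 to -0.56 at 200 ng/ml in ckh1-1, and by -0.16 to 0.41 and -0.93 to -0.36 in ckh2-1. Its average from 0 to 25 ng/ml ran from -0.032 to 0.20.

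Counts over all probe sets depend strongly on the scaling split. The block raised calls from 0 to 200 ng/ml from 402 to 1541 in the wild type, 1518 to 4851 in ckh1-1, 1169 to 3552 in ckh2-1 and 2995 to 7042 on average. From 25 to 200 ng/ml it raised them from 59 to 472, 228 to 609, 371 to 1191 and 888 to 2787, and from 0 to 25 ng/ml from 211 to 1210 in ckh1-1, 3 to 104 in ckh2-1 and 241 to 1250 on average. Against the wild type at 0, 25 and 200 ng/ml and on average, ckh1-1 went from 333 to 1217, 267 to 1235, 556 to 1980 and 1437 to 3715, and ckh2-1 from 300 to 1068, 189 to 966, 530 to 1890 and 1494 to 3695. Response differences at 200 ng/ml went from 149 to 599 and from 40 to 199. TSA against no addition went from 1583 to 5260 (565 without replicate 1 of TSA), and TSA against 200 ng/ml from 1717 to 5083. Rescaling and quantile normalization gave counts between these in each. Low signal limits RR16 below 200 ng/ml kinetin and in ckh1-1 at 200 ng/ml. It also limits ARR15 without kinetin, where signals ran from 5.80 to 47.3 with a median of 24.9. The same holds for ARR15 under TSA, with signals of 5.29 and 18.3. That median and both signals under TSA were below the added constant. Background was not measured here, since detection calls were not used.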
